A study of Ovis aries with 16 samples.

Results

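The genes described are those that copy DNA and carry a cell through S phase. A list of 47 was looked up by symbol in the annotation of the array's probe sets, which held 41 of them; MCM2, MCM10, GINS1, GINS2, POLE and RFC1 had no entry there and were not analysed. The 41 were part of 9155 genes tested, and each was read from 1 probe set, the one with the highest mean over all 16 arrays. All 41 were measured on every array, no filter on low values was applied, and 8 of them lay at or under percentile 25 of the genes by level.

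RNA came from peripheral lung of lambs 3 days after birth. The 8 control lambs had a sham operation, and in the 8 shunt lambs a graft (width 8 mm, length 2 mm) joined the ascending aorta to the main pulmonary artery; surgery was done in utero 9 ± 6 days before term. The graft sends aortic blood into the lung vessels, and the lambs stand for congenital heart defects in which too much blood passes through the lung. Breed, sex, litter and array batch were not given in the sources used here, so each array was taken as 1 lamb and p-values measure the spread between arrays. Whole tissue was used: in such bulk samples a different number of dividing cells and a different amount of RNA per cell cannot be told apart.

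Before a cell can copy its DNA, the origin recognition complex marks start sites, and CDC6 and CDT1 load the MCM helicase onto them. In S phase CDC45 and the GINS proteins switch the helicase on, primase and the polymerases synthesise DNA behind it, PCNA clamps the polymerases to the template, and ribonucleotide reductase and thymidylate synthase supply the building blocks. Many of these genes are transcribed under E2F control, so they are known to move together in tissues where the share of dividing cells varies.

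The arrays resembled each other, with correlations between pairs from 0.980 to 0.995, and control replicate 2 had the lowest mean correlation with the others (0.983). The lung markers SFTPC, SFTPB and PECAM1 stood at percentiles 99.4, 98.1 and 98.2 of the genes by level. Other markers of the same endothelial and alveolar type 2 lists were dim, with VWF at percentile 4.84, KDR at 13.2, CLDN5 at 27.8 and SLC34A2 at 31.1. Array medians were 7.16 ± 0.02 (SD, n = 8) in control and 7.14 ± 0.01 in shunt lambs. Values are log2 levels, and a difference is the mean of shunt minus that of control lambs with its standard error (SE) from the limma fit over all genes; adjusted p-values are Benjamini-Hochberg values over the 9155 genes.

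None of the 41 genes passed an adjusted p of 0.05 (limma), where 0.0874% of all genes did (0.0655% higher, 0.0218% lower), and the smallest adjusted p was 0.283, that of RRM2. At an unadjusted p under 0.05, 5 members were higher in shunt lung (12.2%, against 6.63% of all genes) and 1 was lower, against 7.92%. The 5 were CCNE2, UHRF1, RRM2, RPA3 and POLA1, and the 1 was POLA2. The difference was above 0 for 29 members (70.7%, against 44.9% of all genes), with a median of 0.04 beside -0.01 over all genes. A difference of 0.1 or more was seen for 15 members (36.6%, against 17.3% of all genes), one of -0.1 or less for 2 (4.88%, against 19.1%). At least 7 of the 8 shunt lambs exceeded the control mean for 10 members (24.4%, against 14.4% of all genes), a count of 6 without control replicate 2. That array was the lowest control for 29.2% of all genes too, and their share without it is not given here. The values of shunt and control lambs overlapped for each of the 41; they did not overlap for 0.153% of all genes.

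These counts leaned on single lambs. The number of members higher at an unadjusted p under 0.05 was 0 without control replicate 2 or 7 or shunt replicate 2 or 4, 1 without control replicate 5, 2 without shunt replicate 8, 3 without control replicate 4 or 8 or shunt replicate 7, and 8 without control replicate 6. The 1 lower member was lost without control replicate 1, 2 or 3 or shunt replicate 6, 7 or 8. The median difference was 0.012 without shunt replicate 2, 0.017 without control replicate 8 and 0.067 without control replicate 6. The share of members above 0 was 58.5% without shunt replicate 2 or 4, beside 43.8% and 44.9% of all genes. It was 75.6% without control replicate 6, beside 45.6%. With a replicate block 2 members were higher, beside 5.9% of all genes. With each array centred on its median 8 members were higher and 0 lower, and 9.27% of all genes were higher. After centring, 75.6% of the members and 53.6% of all genes had a difference above 0.

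**Figure D1:**
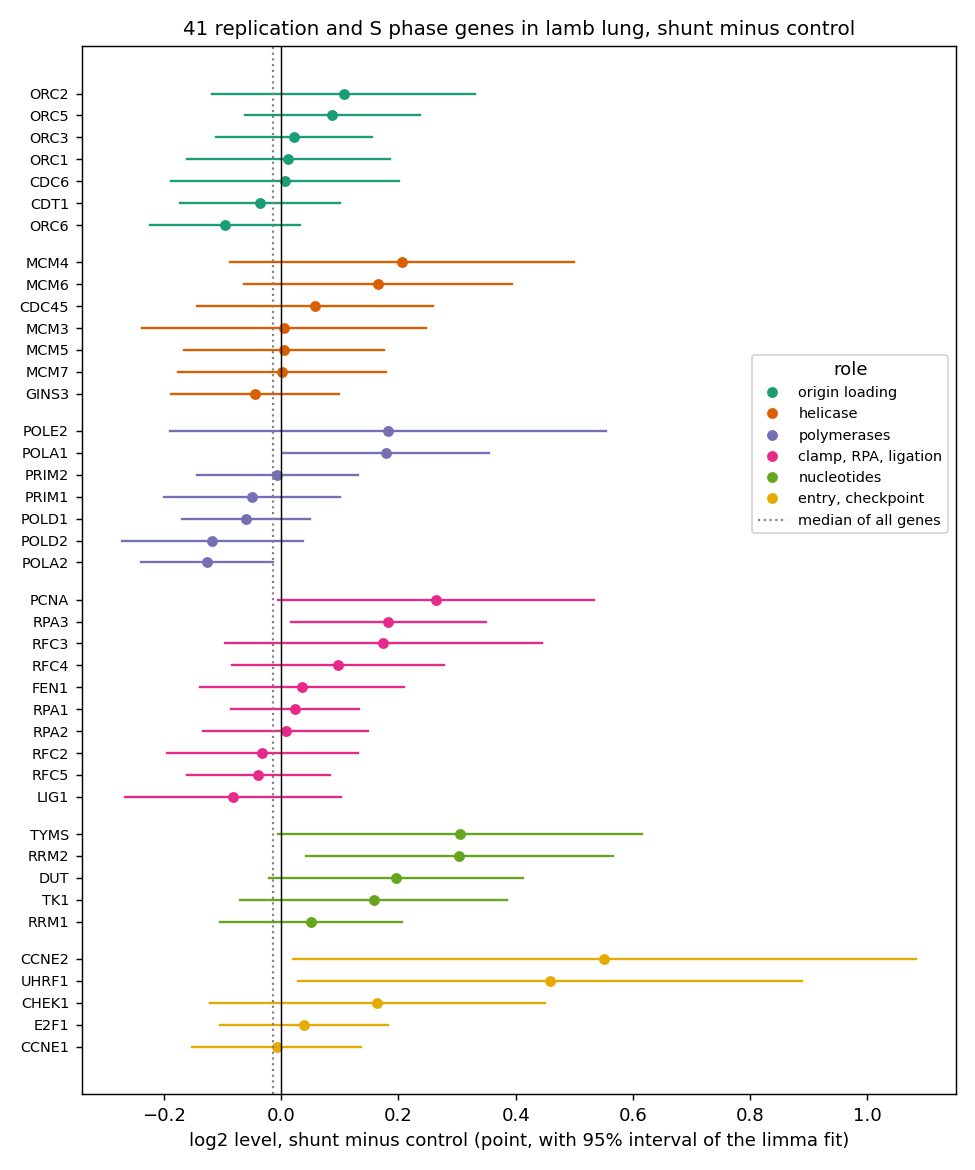
Difference in log2 level (x axis, shunt minus control) of the 41 genes, grouped by role, with the 95% interval of the limma fit; the dotted line is the median of all genes, -0.01. CCNE2 and UHRF1 lie farthest to the right at 0.55 and 0.46, POLA2 and POLD2 farthest to the left at -0.13 and -0.12.

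The group of entry, checkpoint and methylation maintenance genes held the 2 greatest differences among the members. CCNE2, a cyclin that partners CDK2 at the G1 to S transition, read 6.90, 8.19 and 9.16 (lowest, median and highest log2 level) in control lambs and 8.17, 8.57 and 9.17 in shunt lambs. The 8 shunt lambs all lay above the control mean, but 1 of them exceeded the highest control. The difference of 0.55 ± 0.25 (SE), or 1.47-fold, had an adjusted p = 0.329 (limma). UHRF1, which brings the maintenance DNA methyltransferase to newly copied DNA, read 8.34, 9.24 and 9.93 in control and 9.29, 9.62 and 10.12 in shunt lambs. Its difference was 0.46 ± 0.20 (adjusted p = 0.320), again with 8 of 8 shunt lambs above the control mean, and the other UHRF1 probe set gave 0.26 ± 0.14.

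The lowest readings of both genes were controls. Control replicates 2, 5 and 7 read 6.90, 7.27 and 7.67 for CCNE2 and 8.34, 8.74 and 8.61 for UHRF1, below every shunt lamb, as were control replicate 4 for CCNE2 (8.13) and control replicate 8 for UHRF1 (9.08). The SD of CCNE2 was 0.74 among the controls and 0.32 among the shunt lambs (n = 8 a group), and that of UHRF1 0.59 and 0.28. Without control replicate 2 the differences were 0.39 for CCNE2 and 0.34 for UHRF1.

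The paralog CCNE1, the other cyclin E, did not share the pattern of CCNE2: it read 6.72, 6.87 and 7.04 in control and 6.67, 6.86 and 7.14 in shunt lambs. Its difference was -0.0074 ± 0.069 (95% interval -0.15 to 0.14), and its sign was positive after centring, after a second quantile normalization and with other choices of probe set. The difference between the cyclins was not tested. The CCNE1 probe set was also dimmer, at percentile 25.1 of the genes by level beside 52.2 for CCNE2. E2F1, a transcription factor of the S phase program, was dim, at percentile 18.5, and differed by 0.04 ± 0.07. CHEK1, the kinase that restrains the cycle when replication stalls, differed by 0.16 ± 0.14.

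All 5 genes of deoxynucleotide supply had a difference above 0, with a median of 0.20. RRM2, the regulated subunit of ribonucleotide reductase, read 5.43, 5.78 and 6.34 in control and 5.88, 5.99 and 6.49 in shunt lambs. Each shunt lamb lay above the control mean, 2 were above the highest control, and the difference was 0.30 ± 0.12, or 1.23-fold (adjusted p = 0.283). Its probe set was dim, at percentile 11.8 of the genes by level. TYMS, thymidylate synthase, read 7.91, 8.55 and 9.02 in control and 8.48, 8.77 and 9.30 in shunt lambs, a difference of 0.30 ± 0.15 (adjusted p = 0.348), and 7 of the 8 shunt lambs exceeded the control mean. A second, dimmer TYMS probe set went the other way, at -0.07 ± 0.09.

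DUT, the enzyme that clears dUTP, differed by 0.20 ± 0.10 (8 of 8 shunt lambs above the control mean), and its other probe set by 0.25 ± 0.13. TK1, the S phase thymidine kinase, differed by 0.16 ± 0.11. RRM1, the large subunit of ribonucleotide reductase, had the least difference of the 5 genes, with 10.18, 10.45 and 10.72 in control and 10.33, 10.49 and 10.74 in shunt lambs and a difference of 0.05 ± 0.07 (95% interval -0.10 to 0.21). The 2 subunits of the reductase thus differed by 0.30 and 0.05, a contrast that was not tested.

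**Figure D2:**
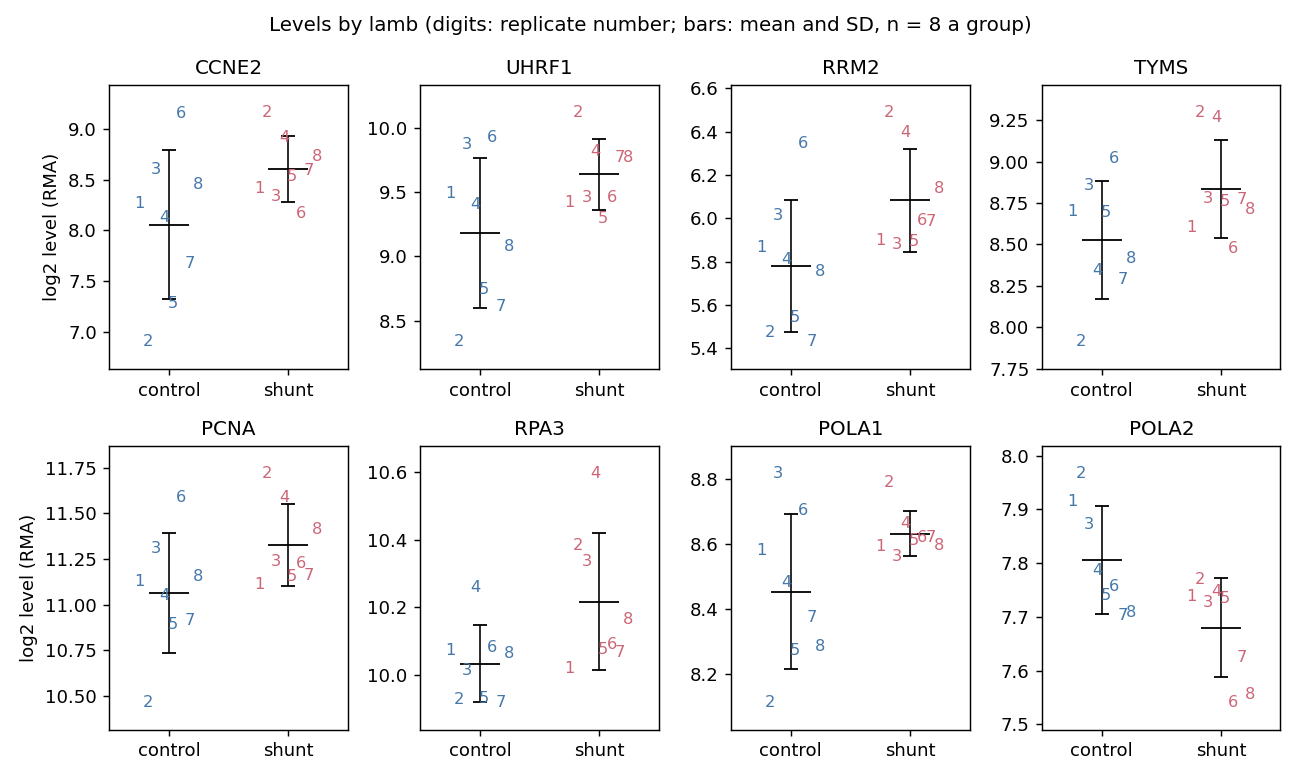
Log2 level (y axis, RMA; each panel has its own range) of 8 genes in control (blue) and shunt (red) lambs; each digit is a lamb's replicate number and the bars give mean and SD (n = 8 a group). Control replicates 2, 5 and 7 hold the low end for CCNE2 and UHRF1, and shunt replicates 2 and 4 the high end for RRM2 and TYMS.

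Among the clamp, clamp loader, single strand binding and ligation genes, 7 of 10 differences were above 0. PCNA, the sliding clamp, read 10.47, 11.09 and 11.59 in control and 11.11, 11.23 and 11.72 in shunt lambs. All 8 shunt lambs lay above the control mean, 1 above the highest control, and the difference was 0.26 ± 0.13 (adjusted p = 0.348). RPA3, the small subunit of the protein that coats single-stranded DNA, read 9.92, 10.04 and 10.26 in control and 10.02, 10.13 and 10.60 in shunt lambs, and shunt replicates 2, 3 and 4 exceeded every control. Its difference was 0.18 ± 0.08 (adjusted p = 0.308).

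The other subunits of that coating protein gave smaller values, 0.02 ± 0.05 for RPA1 and 0.0075 ± 0.067 for RPA2. RPA2 read 7.98, 8.17 and 8.25 in control and 7.84, 8.15 and 8.33 in shunt lambs, so the shunt lambs lay on both sides of the controls. The other, dimmer RPA2 probe set gave 0.19 ± 0.09. The clamp loader subunits RFC3 and RFC4 differed by 0.17 ± 0.13 and 0.10 ± 0.09, RFC5 and the dim RFC2 by -0.04 ± 0.06 and -0.03 ± 0.08. The flap nuclease FEN1 and the ligase LIG1, which finish Okazaki fragments, were at 0.04 ± 0.08 and -0.08 ± 0.09, and the other 2 LIG1 probe sets at -0.16 and -0.05. LIG1 was dim, at percentile 24.3 of the genes by level.

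The helicase genes had 6 of 7 differences above 0 but a median of 0.0055, and 3 of them were near 0. MCM4 read 9.16, 9.75 and 10.21 in control and 9.65, 9.84 and 10.36 in shunt lambs. Shunt replicates 2 and 4 lay above the highest control, and the difference was 0.21 ± 0.14 (adjusted p = 0.498). MCM6 read 9.49, 9.95 and 10.24 in control and 9.90, 10.01 and 10.51 in shunt lambs, where 7 of the 8 shunt lambs exceeded the control mean, with a difference of 0.17 ± 0.11 (adjusted p = 0.483) and 0.26 ± 0.14 with its other probe set.

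MCM3, MCM5 and MCM7, further subunits of the same ring, differed by 0.0055 ± 0.12, 0.0052 ± 0.081 and 0.0012 ± 0.084, and each of these was negative after a second quantile normalization. MCM7 read 8.79, 9.26 and 9.42 in control and 8.96, 9.24 and 9.35 in shunt lambs, and its 95% interval of -0.18 to 0.18 covers the difference seen for MCM6. CDC45 was at 0.06 ± 0.10 and GINS3 at -0.05 ± 0.07.

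The polymerase and primase genes went in both directions, with 2 of 7 above 0 and a median of -0.05. POLA1, the catalytic subunit of polymerase alpha, read 8.11, 8.43 and 8.82 in control and 8.56, 8.61 and 8.79 in shunt lambs. The shunt lambs formed a narrow band, with an SD of 0.07 beside 0.24 in control, inside the control range and above the control mean in 8 of 8. The difference was 0.18 ± 0.08 (adjusted p = 0.338), and the other POLA1 probe set gave 0.17 ± 0.05 (adjusted p = 0.217 over all probe sets).

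POLA2, the accessory subunit of the same enzyme, read 7.70, 7.77 and 7.97 in control and 7.54, 7.73 and 7.77 in shunt lambs. All 8 shunt lambs lay below the control mean, at a difference of -0.13 ± 0.05 (adjusted p = 0.296). Its other probe set gave 0.02 ± 0.07, so the direction rests on the probe set chosen. The polymerase delta genes POLD2 and POLD1 were at -0.12 ± 0.07 and -0.06 ± 0.05, and 7 of the 8 shunt lambs were below the control mean for each. POLE2, a subunit of polymerase epsilon, was at 0.18 ± 0.18 and at 0.034 without control replicate 2, which read 7.15. Primase subunits PRIM1 and PRIM2 were at -0.05 ± 0.07 and -0.0067 ± 0.065; PRIM2 read 6.25, 6.45 and 6.77 in control and 6.29, 6.46 and 6.52 in shunt lambs, and both were dim, at percentiles 2.30 and 18.3 of the genes by level.

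The origin recognition and loading genes had 5 of 7 differences above 0 and a median of 0.012, with no member past an unadjusted p of 0.05. ORC6 read 8.05, 8.23 and 8.47 in control and 7.99, 8.16 and 8.27 in shunt lambs, a difference of -0.10 ± 0.06 (adjusted p = 0.466). ORC5 read 8.45, 8.63 and 8.79 in control and 8.47, 8.71 and 9.01 in shunt lambs, and 3 shunt lambs exceeded the highest control at a difference of 0.09 ± 0.07. ORC2 differed by 0.11 ± 0.11 (the dimmer probe set by -0.07), ORC3 by 0.02 ± 0.06 and the dim ORC1, at percentile 14.4, by 0.012 ± 0.083.

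The loading factor CDC6 read 5.92, 6.19 and 6.38 in control and 5.86, 6.20 and 6.57 in shunt lambs, a difference of 0.0070 ± 0.092 at percentile 14.5 of the genes by level. CDT1, its partner, was at -0.04 ± 0.07 with the brighter probe set and at -0.22 ± 0.07 (adjusted p = 0.245 over all probe sets) with the dimmer one. Over the 17 members with more than 1 probe set, the probe sets of 5 (ORC2, TYMS, GINS3, CCNE1 and POLA2) differed in sign.

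Many of the 41 genes, though not all, went up and down together across the lambs. With the mean of each group removed, the median Pearson r over the 820 pairs of members was 0.326 across 16 lambs, beside 0.012 over all pairs of genes, and 78.2% of the pairs were positive, beside 51.4%. A single component held 45.1% of the members' variance, a share that was not taken for other genes. The median r was 0.286 within control and 0.492 within shunt lambs, and the same within a group was not taken over all genes. All members come from the same arrays, so these values describe the set and were not tested, and genes that move together are not independent observations.

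The genes that followed the rest most closely were MCM4 (r = 0.969 with the mean of the other 40), RRM2 (0.945), PCNA (0.937), DUT (0.909), RRM1 (0.906) and MCM3 (0.902). At the other end stood ORC3 (-0.195), RFC2 (-0.199) and PRIM1 (-0.207), with POLD2 at -0.067 and POLA2 at 0.103. Of the 20 members that followed the rest most closely, 20 had a difference above 0, with a median of 0.17. These 20 include MCM3 and MCM7, which were negative after a second quantile normalization or with array weights, FEN1, which was negative with array weights, and CDC6, which was negative with either covariate given further on. Of the other 21, 9 did, with a median of -0.0074. This division was made after the values were seen and was not tested. It fell between CDC45 and RFC5, both with an r of 0.642, and RFC5, the first gene past it, was at -0.04. Close following did not go with a difference between groups in each case, since MCM3 was at 0.0055 and FEN1, with an r of 0.846, at 0.04.

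**Figure D3:**
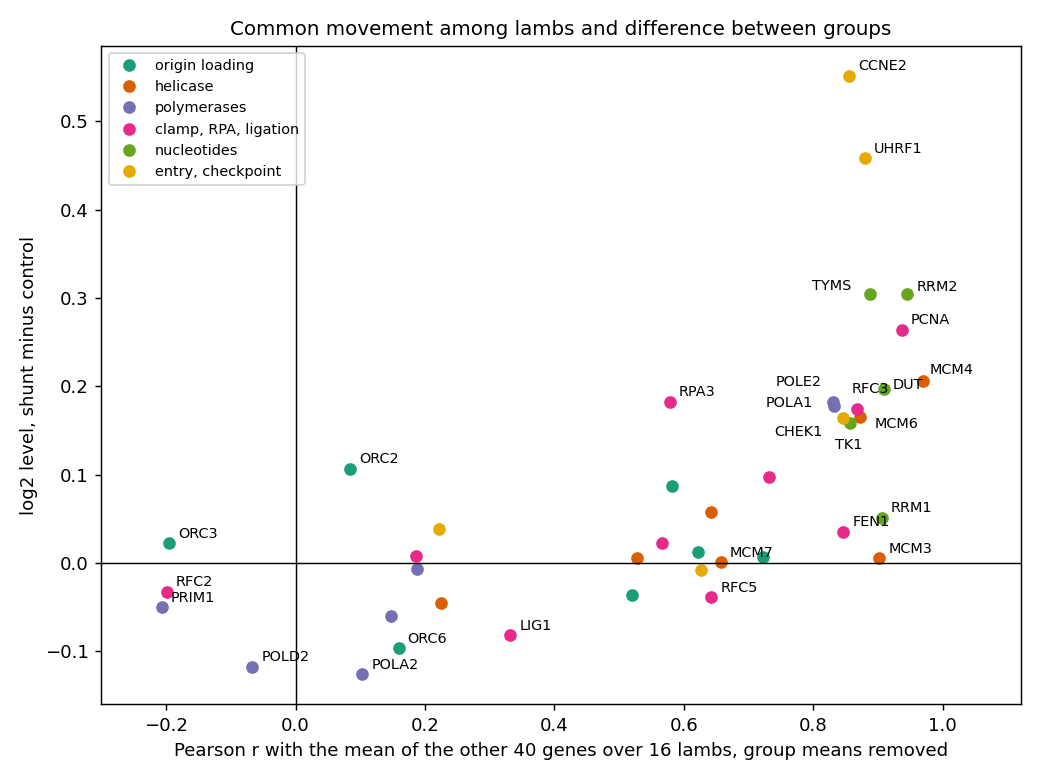
Each point is 1 of the 41 genes: Pearson r with the mean of the other 40 genes over 16 lambs after the group means were removed (x axis) and difference in log2 level, shunt minus control (y axis), coloured by role. The genes with r above 0.8 all lie at or above 0, from MCM3 at 0.0055 (negative after a second quantile normalization) to CCNE2 at 0.55, and the polymerase subunits POLD2 and POLA2 lie at low r and below 0.

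By lamb, the 41 genes fell into few high and many low readings. Each gene was set to its own mean over the 16 lambs, and the members were then averaged within each lamb. The mean was 0.24 in shunt replicate 2, 0.21 in shunt replicate 4, 0.20 in control replicate 6, 0.14 in control replicate 3 and 0.07 in shunt replicate 8. In these 5 lambs, 3 shunt and 2 control, 31 to 36 of the 41 genes were above their own mean, and in the other 11 lambs 7 to 18 were. The lowest value was -0.25, in control replicate 2, which had the lowest reading of the controls for 46.3% of the members and 29.2% of all genes. Shunt replicate 2 had the highest reading of the shunt lambs for 51.2% of the members and 16.4% of all genes.

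The 2 groups overlapped broadly on this mean, which ran from -0.25 to 0.20 in control (median -0.07) and from -0.07 to 0.24 in shunt lambs (median -0.02). Of the 8 controls, 4 lay below the lowest shunt lamb, and 2 shunt lambs lay above the highest control. The difference of 0.08 between the group means came with an SD of 0.15 among the control and 0.12 among the shunt lambs (n = 8 a group).

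A measure of RNA quality was set beside these values. For 6 control genes, the 3′ probe sets minus the 5′ probe sets gave 1.00 ± 0.23 (SD, n = 8) in control and 1.02 ± 0.13 in shunt lambs. Within the controls this value was 1.24 and 1.26 in replicates 3 and 6, where the members were high, and 0.80 and 0.61 in replicates 2 and 5, where they were low. It was 0.91, 1.21, 1.06 and 0.90 in control replicates 1, 4, 7 and 8, with members' means of -0.03, -0.04, -0.14 and -0.09. Among the shunt lambs the highest members' means, in replicates 2 and 4, came with 1.01 and 0.89. The part of RNA quality in the members' values was not tested beyond a fit with the 3′ minus 5′ difference as a covariate. In that fit, a setting chosen after seeing the data, the members past an unadjusted p of 0.05 were 5 higher (7.25% of all genes were) and 1 lower. The median difference was 0.026, beside 0.035 without a covariate. With the XIST level as a covariate for the sex of the lamb, 6 members were higher (7.14% of all genes were) and 1 was lower. The members' median was then 0.030.

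**Figure D4:**
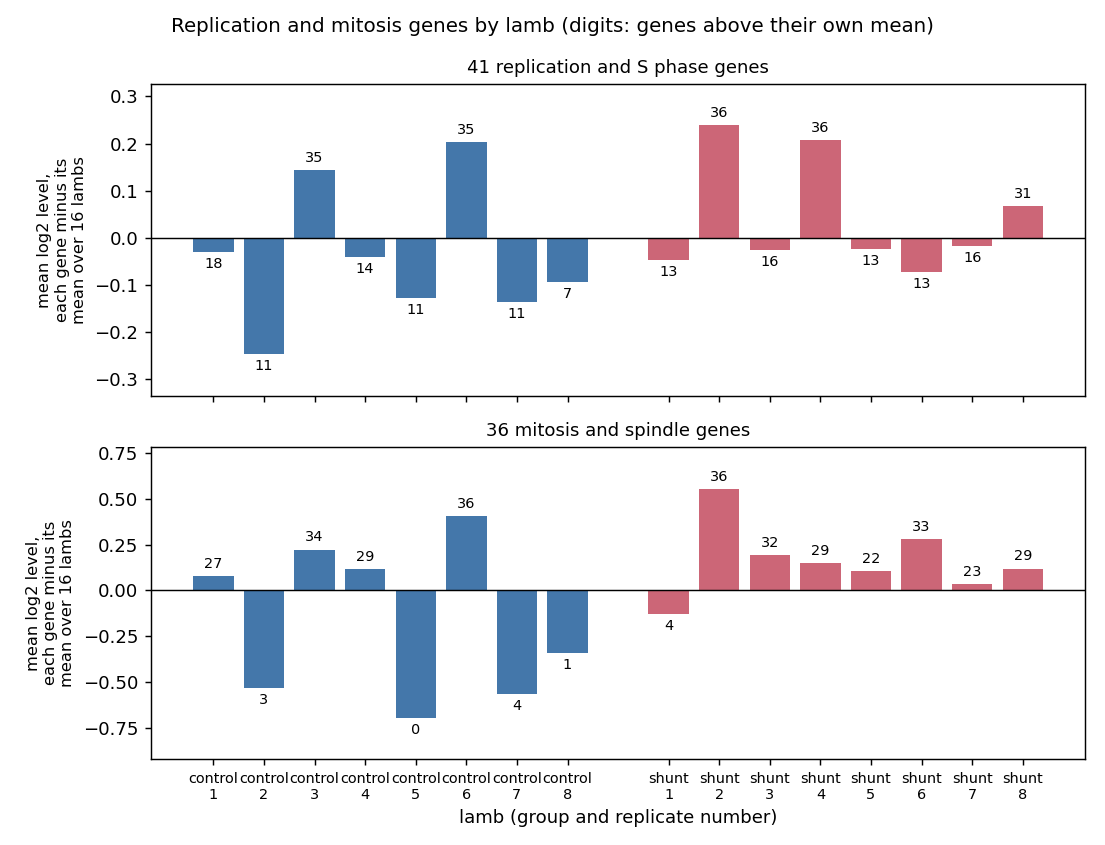
Mean log2 level (y axis) of the 41 replication and S phase genes (top) and of 36 mitosis and spindle genes (bottom) in each lamb, each gene set to its own mean over the 16 lambs; digits count the genes above that mean. Shunt replicates 3, 5, 6 and 7 are above 0 for mitosis genes and below 0 for replication genes, as are control replicates 1 and 4.

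Genes of mitosis and the spindle, most of which act after DNA has been copied, were read in the same lambs. Of 36 measured mitosis and spindle genes 34 had a difference above 0 (94.4%, against 44.9% of all genes), and the median was 0.38. At an unadjusted p under 0.05, 18 were higher (50%, against 6.63% of all genes), although 0 passed after adjustment (limma). That count was 9 without control replicate 2, 8 without control replicate 5, 11 without control replicate 7 and 10 without shunt replicate 2. Of all genes, 5.07% to 7.65% were higher at that p with 1 array left out. The genes of smallest p were KIF23 (0.44 ± 0.16), NDC80 (0.68 ± 0.25), NUSAP1 (0.72 ± 0.26) and HMMR (0.47 ± 0.18), with adjusted p from 0.243 to 0.253. NDC80, a kinetochore protein, read 7.35, 8.37 and 8.99 in control and 8.44, 9.04 and 9.34 in shunt lambs, so its lowest shunt lamb lay above the control median.

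Both sets were above their mean in the same 5 lambs and below it in 5 others, 4 of them controls. In the remaining 6 lambs, 4 shunt and 2 control, mitosis genes were above and replication genes below their means. Among these 6, shunt replicate 6 had the widest gap, with mitosis genes at 0.28 (33 of 36 above their mean) and replication genes at -0.07 (13 of 41). Over the groups 8 of the 8 shunt lambs exceeded the control mean for mitosis genes and 6 of the 8 for replication genes. Whether the 2 sets differed in their response was not tested.

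Other replication and S phase genes outside the 41 were measured too. Of these 37, 24 had a difference above 0 (64.9%, against 44.9% of all genes), with a median of 0.03. At an unadjusted p under 0.05, 4 were higher (10.8%, against 6.63% of all genes) and 1 was lower, against 7.92%. After adjustment 0 passed (limma). DBF4, which activates the kinase that fires origins, was at 0.32 ± 0.11, the deoxycytidine kinase DCK at 0.28 ± 0.13, the pocket protein RB1 at 0.22 ± 0.09 and the thymidylate kinase DTYMK at -0.13 ± 0.06.

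Of 12 measured G1 genes, 8 had a difference above 0 (66.7%, against 44.9% of all genes), with a median of 0.04. At an unadjusted p under 0.05, 2 were higher (16.7%, against 6.63% of all genes) and 1 was lower, against 7.92%. After adjustment 0 passed (limma). CCND1, the cyclin that starts G1 progression, read 7.27, 7.49 and 7.94 in control and 6.88, 7.15 and 7.54 in shunt lambs, below the control mean in 7 of 8, a difference of -0.33 ± 0.11 (adjusted p = 0.222). CCND2 was at -0.18 ± 0.09. MYC, a growth-promoting transcription factor, went the other way at 0.46 ± 0.16 (adjusted p = 0.245), and so did CDKN2C, an inhibitor of CDK4 and CDK6, at 0.40 ± 0.17 with 8 of 8 shunt lambs above the control mean.

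Genes outside the members whose level followed the members' mean most closely over the 16 lambs, with group means removed, were TCF19 (r = 0.919), the nuclear lamina gene LMNB1 (0.877), the histone chaperone subunit CHAF1A (0.873), the condensin subunit NCAPG (0.862), CENPS (0.861), the histone methyltransferase EZH2 (0.858), the checkpoint gene MAD2L1 (0.855), the licensing inhibitor GMNN (0.852), SHCBP1 (0.850) and STMN1 (0.842). Among the 50 closest of 9114 genes, 8 were on the mitosis and spindle list (22.2% of its measured genes, 16% of the 50). Another 8 were on the list of other replication genes (21.6% and 16%). The remaining 34 were on no list used here, but the lists do not hold every cell cycle gene. CIT, the citron kinase of cytokinesis, was among those 34. These genes were picked for the likeness, so it was not tested. Their own differences between groups ran from 0.06 ± 0.13 for CENPS to 0.50 ± 0.21 for NCAPG over the 10 named.

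Markers of other cell types were read in the same lambs, and none passed after adjustment (limma). Of all genes, 44.9% had a difference above 0. Endothelial markers had 8 of 10 differences above 0 (median 0.13). PECAM1 (0.28 ± 0.05, limma adjusted p = 0.0559) and ENG (0.32 ± 0.09) had the smallest p among them. VWF (-0.11 ± 0.06) and CLDN5 (-0.11 ± 0.07) were below 0. The mean of the endothelial markers ran from -0.17 to 0.07 in control and from -0.03 to 0.21 in shunt lambs. Smooth muscle markers had 5 of 7 above 0 (median 0.27), with means from -0.28 to 0.23 and from -0.07 to 0.22. MYH11 (0.33 ± 0.11) and TPM2 (0.37 ± 0.12) had the smallest p among them, and TAGLN the greatest difference (0.39 ± 0.14). CNN1 (-0.18 ± 0.09) and LMOD1 (-0.0002 ± 0.052) were below 0. Fibroblast markers had 5 of 8 above 0 (median 0.02), with means from -0.59 to 0.60 and from -0.34 to 0.53. LUM (0.60 ± 0.24) and COL1A1 (0.20 ± 0.13) had the smallest p among them. DCN (-0.29 ± 0.22), FBLN1 (-0.05 ± 0.22) and PDGFRA (-0.0098 ± 0.061) were below 0.

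Alveolar type 2 markers had 0 of 7 differences above 0 (median -0.19; SFTPB -0.23 ± 0.09, SLC34A2 -0.34 ± 0.14), and neutrophil markers 0 of 7 (median -0.17; ELANE -0.24 ± 0.10, MPO -0.17 ± 0.07). Macrophage markers had 2 of 6 above 0 (median -0.04; MSR1 0.50 ± 0.15, C1QB -0.21 ± 0.13), T cell markers 4 of 9 (median -0.06; LCK -0.20 ± 0.07, ZAP70 0.12 ± 0.07), B cell markers 2 of 3 (median 0.05; CD79A -0.18 ± 0.07, BLNK 0.14 ± 0.12) and erythroid markers 5 of 8 (median 0.09; GYPC 0.34 ± 0.12, HBB 0.68 ± 0.36). HBB was at -0.31 with its most variable probe set. The erythroid markers below 0 were AHSP (-0.18 ± 0.15), SLC4A1 (-0.07 ± 0.07) and EPB42 (-0.02 ± 0.12). In these marker lists 0 genes passed after adjustment (limma). At an unadjusted p under 0.05, 4 endothelial (40%) and 4 smooth muscle markers (57.1%) were higher, and among the other lists 3 genes were higher and 8 were lower. Of all genes, 6.63% were higher and 7.92% lower at that p. The part of these markers in the values of the replication genes was not tested.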

How the data were processed

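Peripheral lung RNA of 8 control and 8 shunt lambs was labelled as biotinylated cRNA from 1 ug of total RNA and hybridised to bovine arrays, so sheep RNA was read with bovine probes. The deposited values are log2 levels; the submitters' processing notes name RMA; its version, the scanner files and array dates were not given in the sources used here. Of 24128 probe sets, 112 controls were left out and 24016 remained; 13292 had 1 symbol in the platform annotation, 86 had several and 10638 had none. Each of 9155 genes was read from its probe set of highest mean over the 16 arrays. All 41 members, and 8492 of the genes, were also found by symbol in a sheep gene table.

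Shunt was compared with control in 1 fit over all genes with limma 3.58.1 (lmFit and eBayes, two-sided, Benjamini-Hochberg, threshold 0.05) in R 4.3.3; figures were drawn in Python 3.11.15 with matplotlib 3.10.9. The fit was also run on simulated data in which genes varied independently of each other. The members move together, so that run does not bear on them as a set. Precision is limited by 8 arrays a group. The members and all gene lists were chosen with earlier results of these data known. Genes were named by rule: in each of 6 role groups the 2 members of smallest and the 1 of largest p with values by lamb, the other members by difference, up to 4 genes of smallest p from each pathway list, up to 2 from each marker list, the 10 genes closest to the members' mean, and members whose probe sets differ in sign.

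Alternatives were a replicate block, median centring, a second quantile normalization, leaving out genes under percentile 25 by level, array weights, a trended and robust prior, other choices of probe set, the XIST level and the 3′ minus 5′ difference as covariates, a threshold of 0.10, and each array left out. Deviations from the group means correlated between same-numbered arrays at -0.27 to 0.189, so the numbers were not taken as pairs. Sequences of probes, promoters and proteins were not used here.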

Additional observations from a re-analysis of the deposited data

Results flagged for a closer look

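Among 120 sets of 8 values (the level of each member, or the mean of a gene list, in the lambs of 1 group), 8 had 1 lamb separated from the nearest other by more than 0.526 of the group's range, where about 6 would be reached by chance at 1 in 20. Of these 8, 3 concerned control replicate 2. It was lowest for POLE2, at 7.15 with the nearest control at 8.11, highest for the dim PRIM1, at 5.03 with the nearest at 4.69, and lowest for the mean of the macrophage markers, at -0.55 with the nearest at -0.05.

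Control replicate 5 was highest for POLD2, at 8.59 with the nearest at 8.37, and lowest for E2F1, at 6.15 with the nearest at 6.40. Control replicate 1 was lowest for MCM5, at 8.36 with the nearest at 8.75. Shunt replicate 2, the lamb with the highest mean of the members, was highest for POLA1, at 8.79 with the nearest at 8.66, and for FEN1, at 7.64 with the nearest at 7.51.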

How the results depend on the processing

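No member passed an adjusted p of 0.05 (limma) under any of the 11 other settings or with any 1 array left out. The members' median difference lay between 0.026 and 0.058 over those settings and between 0.012 and 0.067 with 1 array left out. The 5 members higher at an unadjusted p under 0.05 numbered 2 with the replicate block, 8 with arrays centred on their medians, 2 after a second quantile normalization and 2 with array weights, and 0 to 8 with 1 array left out. Of all genes, 5.9%, 9.27%, 6.15% and 6.84% were higher in those settings in turn, and 5.07% to 7.65% with 1 array left out. The 1 lower member numbered 0 with centring and 0 to 1 with 1 array left out. Centring also turned the 607 higher and 725 lower of all genes at that p into 849 and 448. Of the mitosis genes, 10 rather than 18 were higher with array weights, and 8 to 23 with 1 array left out. In the pathway and marker lists 1 gene (PECAM1) rather than 0 passed with centring, array weights, the trended prior, the mean or the most variable probe set, the XIST or 3′ minus 5′ covariate or a threshold of 0.10, and 0 to 2 with 1 array left out. Causes were not tested.

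Signs turned only for small differences or other probe sets. With centring PRIM2 was at 0.016 and CCNE1 at 0.016. After a second quantile normalization MCM3 was at -0.028, MCM5 at -0.0099, MCM7 at -0.018, PRIM2 at 0.022, RPA1 at -0.028 and CCNE1 at 0.019. With array weights MCM3 was at -0.019, MCM7 at -0.038, RFC2 at 0.048, FEN1 at -0.0063 and CENPS at -0.0027. With the mean of probe sets CCNE1 was at 0.0050, and with the most variable one GINS3 was at 0.0072, POLA2 at 0.025, CCNE1 at 0.017 and HBB at -0.31. With the XIST covariate CDC6 was at -0.0014, MCM3 at -0.00090 and MCM7 at -0.0034, and with the 3′ minus 5′ covariate CDC6 was at -0.0022, MCM3 at -0.0049, MCM5 at -0.00098 and MCM7 at -0.0061. With 1 array left out the range crossed 0 for CCNE1 (-0.045 to 0.023), CDC6 (-0.049 to 0.051), CDT1 (-0.067 to 0.0031), CENPS (-0.042 to 0.13), E2F1 (-0.0032 to 0.078), FEN1 (-0.030 to 0.084), MCM3 (-0.054 to 0.055), MCM5 (-0.052 to 0.042), MCM7 (-0.056 to 0.034), ORC1 (-0.026 to 0.067), ORC3 (-0.0088 to 0.051), PRIM1 (-0.079 to 0.0074), PRIM2 (-0.036 to 0.038), RFC2 (-0.065 to 0.026), RPA1 (-0.0072 to 0.042) and RPA2 (-0.019 to 0.051).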

Other observations

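The share of replication genes with a higher SD in control than in shunt lambs was close to that of all genes, with 29 of the 41 (70.7%) beside 67.3%. Without control replicate 2 it was 21 of the 41 (51.2%), beside 56.7% of all genes.

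Among the 50 genes closest to the members' mean from lamb to lamb, differences between the groups ran from near 0 or below, as for PHGDH (-0.05 ± 0.09), RCC1 (-0.03 ± 0.09) and NASP (-0.0008 ± 0.077), to well above it. CIT, the citron kinase of cytokinesis, had a difference of 0.71 ± 0.27, PCLAF, a PCNA-binding factor, of 0.59 ± 0.23, and the kinase MELK of 0.42 ± 0.17, with adjusted p of 0.257, 0.265 and 0.282 (limma). These 6 genes were chosen after their values were seen.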
